A study of Mus musculus with 11 samples.

Results

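The shared intergenic distal sites are places in the mouse genome, far from any known protein-coding gene start, where PU.1 was recovered by ChIP-Seq from both normal and leukemic erythroid cells. They were selected on the reads themselves. The genome (mm9) was divided into bins of 500 bp, and a bin was kept when it lay more than 10 kb from every protein-coding transcription start site (TSS) and outside every protein-coding gene, held at least 20 PU.1 reads in each cell type and held at least 4 times the depth-scaled input, taken as at least 3 reads, in each. Adjacent bins were joined. Of 2,942,096 distal intergenic bins 761 passed, and they form 727 sites, out of 12,927 regions anywhere in the genome that passed in either cell type or in both. The number depends on the libraries and on this floor: it was 261 without ES-EP preparation A, 320 without MEL preparation B, 471 without MEL preparation A and 438 with the floor set on input reads before scaling, which was tried after seeing the data. Of the distal intergenic bins that passed in MEL cells 40.0% passed in ES-EP as well, and 45.4% of those that passed in ES-EP passed in MEL cells.

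The study mapped PU.1 in murine erythroleukemia (MEL) cells, a leukemic erythroblast line, and in ES-EP, erythroid progenitors grown out of embryonic stem cells. The MEL cells are a stably transfected clone with a GATA-1/ER fusion and were kept under puromycin, so that every MEL library carries the fusion. ES-EP were kept dividing with dexamethasone, IGF-1, erythropoietin and stem cell factor, without a fusion. Each cell type gave 2 chromatin preparations (A and B) that were precipitated with the same anti-PU.1 serum and sequenced as 2 libraries each, with 1 input library for MEL cells and 2 for ES-EP. The methods state duplicate preparations, while the labels give only the codes A1, A2, B1 and B2, so reading the letter as the preparation and the number as its library is an interpretation on which each n = 2 below rests. No treatment or time course separates the samples, and transformation, the fusion and the culture medium cannot be told apart in any comparison of the cell types.

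PU.1 is a transcription factor of the ETS family that binds a purine-rich sequence around the core GGAA. It is required for the myeloid and B cell lineages, it is normally turned down as erythroid cells mature, and its persistence blocks that maturation in erythroleukemia. A large part of PU.1 binding lies away from promoters, at enhancers, where it binds with factors of the lineage. An enhancer can act on a gene other than the nearest, so the gene named beside a site below is a landmark and not a target.

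The sequences around the summits of 10 sites are shown because they are among the strongest members or lie near genes of the blood lineages that are described below, and because they show the element that most members have in common. Each is 101 bases of the plus strand of mm9, centred on the summit, which is the highest window of 100 bp in the mean of both cell types. Capitals mark GAGGAAG, the word AGGAAGT, or the word GGGGAAGT on either strand, and overlapping matches run together.
Site near Alox5ap, chr5:150057696-150057796: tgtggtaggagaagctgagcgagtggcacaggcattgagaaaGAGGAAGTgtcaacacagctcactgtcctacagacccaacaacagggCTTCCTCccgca
Site near H60b, chr10:22026360-22026460: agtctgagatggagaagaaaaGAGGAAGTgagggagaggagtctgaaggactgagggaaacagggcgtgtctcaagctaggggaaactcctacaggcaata
Site near Cxcl5, chr5:91171219-91171319: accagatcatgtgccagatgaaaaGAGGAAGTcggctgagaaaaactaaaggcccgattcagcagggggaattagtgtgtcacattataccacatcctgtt
Site near Runx1, chr16:92874448-92874548: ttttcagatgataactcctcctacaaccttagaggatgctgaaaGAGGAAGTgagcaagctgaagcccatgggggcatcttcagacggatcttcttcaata
Site near Tyrobp, chr7:31179577-31179677: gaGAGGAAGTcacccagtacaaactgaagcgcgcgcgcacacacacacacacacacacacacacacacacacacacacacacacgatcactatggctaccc
Site near Mlana, chr19:29750068-29750168: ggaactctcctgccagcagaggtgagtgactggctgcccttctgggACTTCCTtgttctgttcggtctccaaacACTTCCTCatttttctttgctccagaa
Site near Fam3c, chr6:22424702-22424802: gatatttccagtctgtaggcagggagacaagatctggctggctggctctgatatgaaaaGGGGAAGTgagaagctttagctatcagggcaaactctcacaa
Site near Cdkn1a, chr17:29248368-29248468: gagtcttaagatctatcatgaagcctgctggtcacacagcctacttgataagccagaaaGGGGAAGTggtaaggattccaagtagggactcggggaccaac
Site near Actb, chr5:143690880-143690980: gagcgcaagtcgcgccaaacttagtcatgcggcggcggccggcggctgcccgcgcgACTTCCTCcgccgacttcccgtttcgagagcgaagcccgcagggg
Site near Jak1, chr4:100964730-100964830: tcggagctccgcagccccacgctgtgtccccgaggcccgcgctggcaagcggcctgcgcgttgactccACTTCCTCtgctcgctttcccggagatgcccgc
That all 10 hold at least 1 marked word follows from this choice. The member second in strength, near Trpv2, is not shown and holds no GAGGAAG within 250 bp of its summit. At the sites near Fam3c and Cdkn1a it is GGGGAAGT, and at the sites near Alox5ap, H60b, Cxcl5, Runx1, Tyrobp, Mlana, Actb and Jak1 it is GAGGAAGT or its reverse complement. The sites near Actb and Jak1 lie in sequence of 71.3% G and C over these 101 bases. The summit near Tyrobp lies within a long run of alternating C and A, and its GAGGAAG is centred 45 bp away.

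The element was common to the members and was not used to choose them. Of the 727 members, 309 (42.5%) held AGAGGAAG on either strand within 100 bp of the summit, against 2.32% of the 2,755,531 distal intergenic bins with known sequence, read over a central window of the same length. GAGGAAGT stood in 345 members (47.5%), against 1.19% of bins, and it was the word of 8 bases with the largest difference between members and bins. The shorter AGGAAGT was in 450 members (61.9%, bins 4.82%) and GAGGAAG in 411 (56.5%, bins 5.64%), and these words overlap each other. GGGGAAGT, the variant near Fam3c and Cdkn1a, was in 110 members (15.1%, bins 0.653%). The bare core GGAA was in 98.5% of members but also in 88.0% of bins.

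The share with GAGGAAGT was 48.8% at the 687 shared distal sites inside genes and 34.0% at the 1757 shared regions within 10 kb of a TSS. It was 34.2% at the 1093 distal intergenic regions that passed in MEL cells only and 35.1% at the 887 that passed in ES-EP only. The members thus stood close to the shared sites inside genes and above the other classes by this count, which is a description without a test.

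The words clustered under the summits. Of the 447 members with GAGGAAG within 250 bp, the nearest copy was within 50 bp of the summit at 364 (81.4%) and within 25 bp at 277 (62.0%), with a median distance of 19.0 bp. Positions within 50 bp make up 20.2% of such a window.

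**Figure D1:**
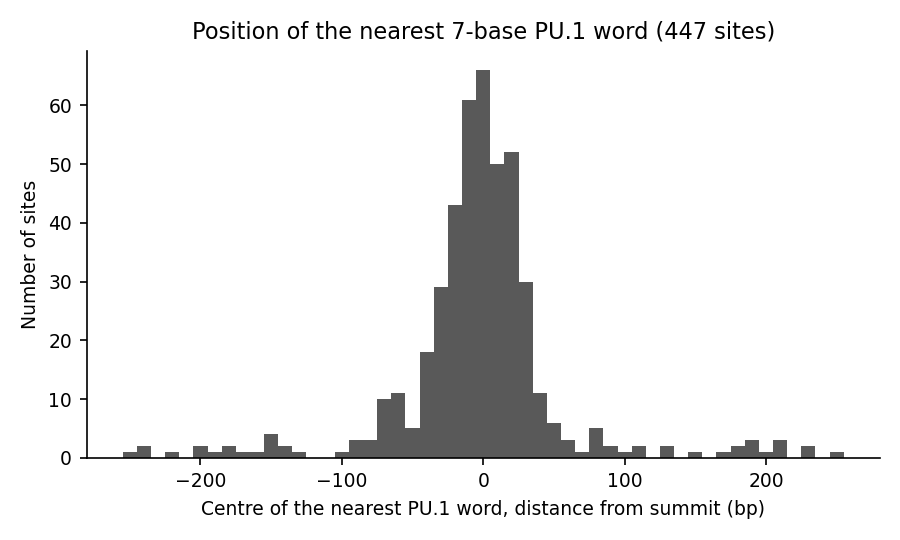
Histogram of the distance in bp from each site's summit to the centre of its nearest 7-base PU.1 word, in steps of 10 bp, for the 447 members that hold the word within 250 bp. The counts peak at the summit, and 364 of the 447 lie within 50 bp of it.

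Words of other factors differed far less from the bins. AGATAA, read by GATA factors, was in 19.5% of members and 14.1% of bins, and TGATAA in 14.3% and 14.1%. TGTGGT, read by RUNX factors, was in 16.8% and 13.3%. The ETS-IRF composite GAANNGAAA was in 11.6% and 7.73%, the AP-1 word TGANTCA in 8.53% and 6.02%, the C/EBP word TTGCNNAA in 11% and 10.0%, the KLF word CCACACCC in 2.61% and 1.05%, and the CTCF core AGGGGGC in 2.48% and 1.29%. Of the E-box words CAGCTG was in 11.4% and 6.46% and CACCTG in 10.2% and 11.1%. GGGCGG, read by Sp1, was in 7.29% of members and 1.39% of bins, and 19 of the 53 members with it were among the 30 CpG-rich sites described below.

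Reads gathered sharply at the members. In windows of 50 bp the mean at the summit was 1.62 (MEL) and 1.79 (ES-EP) RPM per site, where RPM are distinct reads scaled to a library total of 1,000,000. At 1000 to 2000 bp from the summit it was 0.0306 (MEL) and 0.0296 (ES-EP). The inputs also rose at the summit, to 0.0526 (MEL) and 0.0615 (ES-EP) from 0.0323 and 0.0282 at that distance. ChIP over input is what the members were chosen for, so this contrast is a description.

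**Figure D2:**
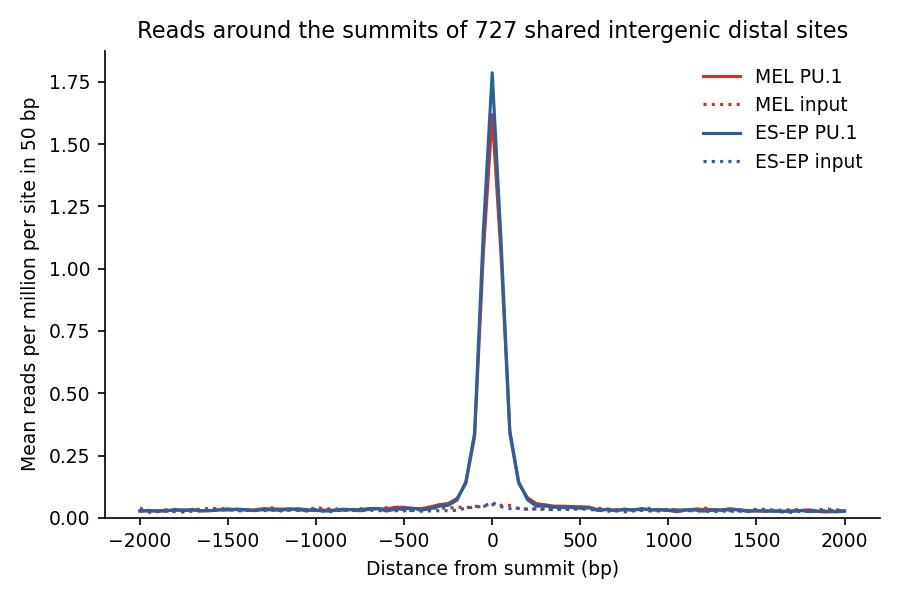
Mean shifted RPM per site in windows of 50 bp (vertical axis) against distance from the summit in bp, over the 727 members, with solid lines for PU.1, dotted lines for input, red for MEL cells and blue for ES-EP. Both PU.1 lines rise at the summit, to 1.62 (MEL) and 1.79 (ES-EP), and the inputs rise far less, to 0.0526 (MEL) and 0.0615 (ES-EP).

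The preparations differed in how much of their DNA came from the members. Of distinct reads, 0.319% lay in the members in MEL preparation A and 0.366% in B, 0.505% in ES-EP preparation A and 0.251% in B, against 0.0296% in the MEL input and 0.0291% in the ES-EP input. The mean was 0.343% ± 0.0332 over the MEL preparations and 0.378% ± 0.180 over those of ES-EP (SD, n = 2 each). The groups overlapped. The members were chosen on these same reads, so the shares are a description with no test. ES-EP preparation A is also the highest of the 4 at many of the sites named below, and the part of its larger share of reads in each was not tested. These preparations have between 5,376,474 and 6,771,951 distinct reads.

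The members were chosen on pooled reads, and preparation A and B were also taken apart. Of 866 distal intergenic bins that met the thresholds in preparation A of both cell types (at least 10 reads and 4 times the input), 430 also met them in preparation B of both, or 49.7% (95% exact binomial interval 46.3% to 53.0%, counting error only). Of all distal intergenic bins 0.0200% met them in B. Of the 587 bins chosen on preparation B, 73.3% (69.5% to 76.8%) met them in A, against 0.0294% of all distal intergenic bins. The input libraries are the same for A and B.

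At most members few reads stand behind the call. A member held a median of 42 MEL reads (20 to 328) and a median of 42 ES-EP reads (20 to 600), and by preparation medians of 18 (A) and 24 (B) for MEL and 26 (A) and 16 (B) for ES-EP. The MEL input had no read at 179 members and the ES-EP input none at 80. At the edge of the rule, 25 member bins had exactly 20 MEL reads, and 30 bins that met every other condition had 19. For ES-EP 28 bins had 20 reads and 28 had 19. By fold over input the 3 lowest member bins stood at 4.05 in MEL cells (23 reads against 2 input reads) and at 4.03 to 4.05 in ES-EP. The 3 nearest bins outside stood at 3.996 in MEL cells (34 reads against 3 input reads) and at 3.94 in ES-EP. Further bins at these folds were not counted.

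The strongest members, by the mean of both cell types in the highest bin, lay near genes of varied function. The first is 22.5 kb upstream of Actb, the cytoplasmic actin gene, at chr5:143690501-143691500, with 119 (A) and 209 (B) MEL reads against 393 (A) and 207 (B) ES-EP reads, and values below keep this order of the preparations. Next came a site 26.9 kb from the TSS of Trpv2, a cation channel gene, with 81 and 187 MEL reads against 236 and 166 ES-EP reads. That site lies in a non-coding host gene of small nucleolar RNAs, 2410006H16Rik, with its summit 18 bp from the start of Snord49b.

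The site 18.9 kb upstream of Alox5ap, which serves leukotriene synthesis in myeloid cells, had 104 and 222 MEL reads against 176 and 130 ES-EP reads. In RPM the highest of the 4 preparations there was MEL B and the lowest ES-EP B. The site 67.5 kb from Gm11084 had 76 and 132 MEL reads against 145 and 82 ES-EP reads, where both the highest and the lowest in RPM were from ES-EP. At the site 26.9 kb upstream of Jak1, the kinase of many cytokine receptors, there were 71 and 114 MEL reads against 207 and 104 from ES-EP.

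The site 13.9 kb from Cct8l1, a chaperonin-like gene, had 83 and 131 MEL reads against 256 and 123 ES-EP reads. Near Dll4, a Notch ligand, the values were 44 and 87 MEL reads against 195 and 99 ES-EP reads at 12.2 kb. Near Cxcl5, a chemokine that attracts neutrophils, they were 75 and 82 against 179 and 101 at 17.1 kb. ES-EP preparation A was the highest of the 4 in RPM at each of these 3 sites.

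At 4 of the 10, those near Fam3c, H60b, Cxcl5 and Dll4, both ES-EP preparations were above both MEL preparations in RPM, where 46.2% of all 12,927 regions had preparations that did not overlap in either direction. The site 119 kb upstream of Fam3c, a secreted protein gene, stood at 11.9 and 12.8 RPM (MEL) against 34.7 and 19.6 RPM (ES-EP). The site 33.3 kb from H60b, a ligand of a natural killer cell receptor, stood at 10.0 and 11.7 against 33.5 and 18.02 RPM. None of the 4 passed the limma test of the cell types described below (limma adjusted p = 0.421 for Fam3c and 0.377 for H60b).

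**Figure D3:**
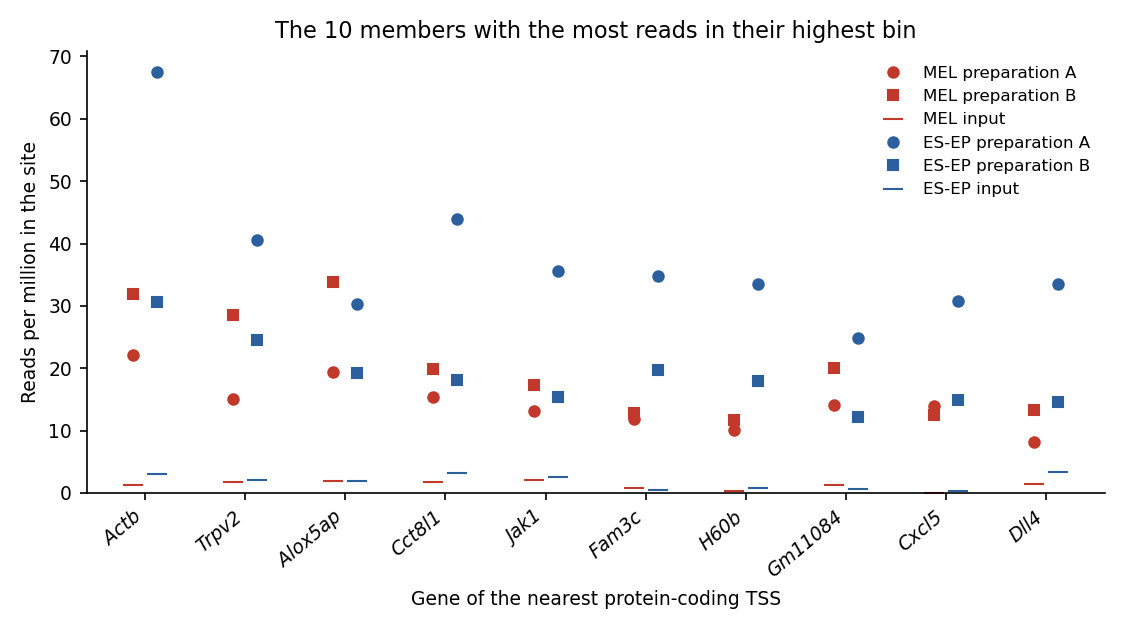
RPM in the site (vertical axis, from 0) at the 10 members with the most reads in their highest bin, with circles for preparation A, squares for preparation B and dashes for input, red for MEL cells and blue for ES-EP. ES-EP preparation A is the highest point at all but Alox5ap, and inputs lie at or below 3.39 RPM.

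Of the 727 members 30 (4.13%) were CpG-rich, with at least 50% G and C and an observed over expected CpG ratio of at least 0.6, against 0.277% of all distal intergenic bins, 0.582% of the shared sites inside genes and 41.9% of the shared regions within 10 kb of a TSS. Among the distal intergenic regions that passed in 1 cell type only it was 11.5% (MEL) and 2.71% (ES-EP), so the members lay between these. They were among the strongest: 10 of the 20 members with the highest mean RPM were CpG-rich. Their median was 7.45 RPM (MEL) and 10.7 RPM (ES-EP), and that of the other 697 members 3.43 and 3.18. Their inputs were higher too, with medians of 0.713 (MEL) and 1.34 (ES-EP) RPM against 0.238 and 0.282, and the part of this in the ChIP values was not tested. GAGGAAGT stood within 100 bp of the summit in 6 of the 30 (20%) and in 339 of the other 697 (48.6%), against 1.19% of all distal intergenic bins. The gap was smaller for the shorter words. GAGGAAG was in 12 of the 30 (40%) and 399 of the 697 (57.3%), and AGGAAGT in 12 (40%) and 438 (62.8%).

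CpG-rich sequence marks many mammalian promoters, and 7 of the 30 had an annotated non-coding start within 1 kb. In all, 16 members lay within 1 kb of a non-coding start and 48 overlapped a non-coding gene, 23 of them a lincRNA and 20 a processed transcript. The distance rule used protein-coding genes only, so the 16 are distal by the rule while lying at starts of other transcripts.

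Members lay closer to TSSs than the bins they were drawn from. The median distance was 40.2 kb (quartiles 20.7 and 87.7 kb, longest 2130 kb), against 147 kb for all distal intergenic bins. These 2,942,096 bins include some without known sequence, where no read can align, and 2,755,531 have known sequence. The part of such bins in the distances was not tested. Between 10 and 20 kb lay 173 members (23.8%, bins 8.90%), from 20 to 50 kb 246 (33.8%, bins 16.8%), from 50 to 100 kb 149 (20.5%, bins 15.3%), from 100 to 500 kb 139 (19.1%, bins 38.3%) and beyond 500 kb 20 (2.75%, bins 20.7%). The site was upstream of the nearest gene start at 456 members and on the downstream side at 271. The rule drops bins inside protein-coding genes, which lie downstream of a gene start. The upstream share over all distal intergenic bins was not computed, so these counts show no preference for a side.

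**Figure D4:**
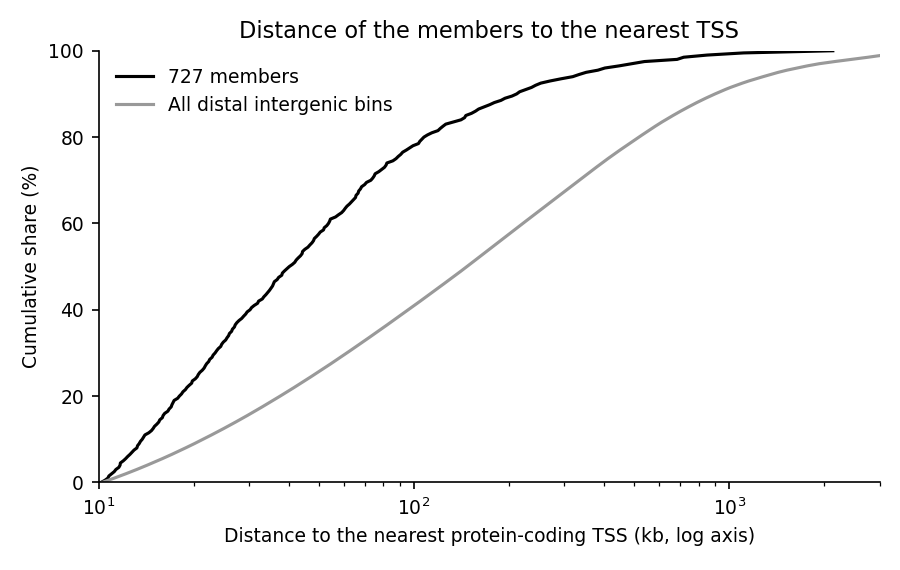
Cumulative share (%) against the distance in kb (log axis) to the nearest protein-coding TSS, for the 727 members (black) and all distal intergenic bins (grey). The members' curve lies to the left, with medians of 40.2 and 147 kb.

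Chromosome 19 had 1.17 members per Mb of distal intergenic bins and chromosome 11 0.727, the highest. The lowest were Y with 0.0664 and X with 0.170. Over the whole genome the value was 0.494. Bins without known sequence are counted in these densities, and their part in the low values was not tested. Of all chromosomes X had the highest ratio of depth-scaled MEL input to that of ES-EP. The part of this ratio in the density of X was not tested.

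The nearest genes were 657 in number, and 600 of these were nearest to 1 member only, 46 to 2, 9 to 3 and 2 to 4. Of the 657 genes, 86 (13.1%) were also nearest to a shared region within 10 kb of a TSS, against 7.26% of all 22,225 protein-coding gene names, and 46 (7.002%) to a shared distal region inside a gene, against 2.76%. A gene with a wide intergenic territory has more bins that can be nearest to it, and these shares take no account of that.

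Of 69 annotated hematopoietic transcription factor genes 11 (15.9%) were nearest to a member, against 2.96% of all protein-coding genes. They are Runx1, Runx3, Myb, Myc, Lmo2, Ikzf2, Klf3, Klf6, Bcl11a, Cebpb and Hhex, with 15 sites between them. The median factor gene had 89 distal intergenic bins nearest to it and the median of all genes 15. Per Mb of these bins the list had 1.41 sites, against 0.494 over all genes. Members were denser near TSSs than far from them, and the values per Mb here and below take no account of distance. This list and those below were chosen with earlier results of these data known, so their shares are descriptions without a test.

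Runx3 and Runx1 encode core binding factors of blood stem cells and lymphocytes. The site 54.0 kb from Runx3 had 51 and 111 MEL reads against 144 and 107 ES-EP reads. Of the 3 sites upstream of Runx1, the one at 48.2 kb (chr16:92874001-92875000) had 76 and 89 MEL reads against 90 and 64 ES-EP reads, where the groups overlapped in RPM. The others, at 206 and 368 kb, had 54 and 60 MEL reads over both preparations, against 39 and 22 from ES-EP.

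Myb holds erythroid progenitors in division, and its site 33.0 kb upstream had 23 and 21 MEL reads against 45 and 33 ES-EP reads. The site 168 kb from Ikzf2, an Ikaros family gene, had 19 and 33 MEL reads against 45 and 18 ES-EP reads. Klf6 had 3 sites between 11.1 and 145 kb upstream, each with 20 to 24 MEL reads against 43 to 82 from ES-EP.

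Of 64 annotated genes of cytokine receptors and signalling 11 (17.2%) were nearest to a member, at 2.94 sites per Mb. Besides Jak1 and Jak2 they include Lcp2, Spry1, Lyn, Fgr, Pik3cg, Socs1, Dusp5 and Ifnar1. The site 15.4 kb upstream of Lcp2, an adaptor of receptor signalling, had 48 and 58 MEL reads against 106 and 69 ES-EP reads. At the site 19.9 kb from Spry1, which restrains receptor tyrosine kinase signalling, there were 13 and 18 MEL reads against 108 and 34 from ES-EP. That difference of -1.88 ± 0.675 in log2 (SE) had a limma adjusted p of 0.0784.

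Of 43 cell cycle and survival genes 11 (25.6%) were nearest to a member, at 1.96 sites per Mb: Cdkn1a, Cdkn1b, Cdkn2a, Cdkn2b, Cdkn2c, Cdk6, Btg1, Pim1, Mcl1, Bcl2l11 and Pmaip1. The first 5 encode inhibitors of cyclin-dependent kinases, and Cdk6 encodes such a kinase. Cdkn1a, which encodes p21, had a site 13.3 kb from its TSS with 66 and 81 MEL reads against 184 and 116 ES-EP reads. The site 145 kb upstream of Cdk6 had 35 and 50 MEL reads against 126 and 96 ES-EP reads. Near Btg1, an inhibitor of proliferation, the order was the other way, with 52 and 62 MEL reads against 36 and 20 ES-EP reads at 145 kb. None of these 3 differences passed the limma test (limma adjusted p = 0.497 for Cdkn1a, 0.308 for Cdk6 and 0.366 for Btg1).

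The remaining lists had fewer members. Of 55 myeloid and innate immune genes 3 (5.45%) were nearest to a member: Tyrobp, a signalling adaptor, with 64 and 104 MEL reads against 57 and 27 ES-EP reads at 19.2 kb, Itga4, an integrin subunit, with 24 and 20 against 34 and 13, and Coro1a, an actin regulator, with 15 and 25 against 18 and 16. Of 31 B and T cell genes 2 were: Prdm1, the plasma cell repressor, with 25 and 38 against 53 and 25, and Cd69, an activation marker, with 19 and 28 against 32 and 19. Of 42 erythroid genes 1 (2.38%) was nearest to a member. The depth-scaled MEL input over the 1 Mb around the site near Tyrobp was 2.05 times that of ES-EP, and its part in these reads was not tested. The median erythroid gene had 4.5 distal intergenic bins nearest to it, and per Mb the list had 0.894 sites.

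Most members stood alone by a rule of 50 kb. With gaps of up to 50 kb, 95 of the 727 (13.1%) had another member beside them, in 40 pairs and 5 groups of 3, and 632 stood alone. The same share was 14.3% for the shared distal sites inside genes, 24.1% for the distal intergenic regions of MEL cells only and 20.6% for those of ES-EP only. These classes hold 687, 1093 and 887 regions, and the number of regions by itself changes such a share. No share for randomly placed sites was computed, so whether the members group more or less than that was not tested.

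The group on chromosome 12 spans 31.7 kb between Prkar2b, a regulatory subunit of protein kinase A, and Pik3cg, the PI3-kinase subunit of blood cells. Its sites had 37 and 73 MEL reads against 98 and 36 from ES-EP, then 13 and 24 against 47 and 28, then 10 and 12 against 27 and 10. The group near Kcnrg on chromosome 14 spans 32.1 kb, and its 3 sites overlap the non-coding gene Dleu2, at 224, 786 and 1657 bp from an annotated start of it. In the order of these distances they had 17 and 37 MEL reads against 78 and 44 from ES-EP, 15 and 46 against 91 and 67, and 23 and 30 against 41 and 17.

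The group near Smug1 on chromosome 15, a DNA repair gene, spans 12.4 kb, and its sites held 26 to 42 MEL reads against 22 to 32 from ES-EP. The group on chromosome 14 at 277 to 317 kb from Mzt1 spans 39.9 kb. Its sites had 24 to 29 MEL reads against 31 to 64 from ES-EP. Mzt1 and Tbl1xr1, named here after their values were seen, were the genes nearest to most members, with 4 each. Those upstream of Tbl1xr1, a corepressor component, were spread from 84.8 to 341 kb.

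The group at Jak2 on chromosome 19, the kinase of the erythropoietin receptor, spans 47.8 kb upstream of the gene. At 23.5 kb its strongest site had 51 and 81 MEL reads against 48 and 22 ES-EP reads, with 11 and 4 input reads. At 14.99 kb the values were 38 and 42 against 26 and 13, and at 62.8 kb 9 and 15 against 18 and 9. Over the 1 Mb around these sites the depth-scaled MEL input was 2.07 to 2.17 times that of ES-EP, where the ratio for the whole chromosome was 1.12. None of the 3 passed the limma test of the cell types.

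Reads at the members of the cell types went together. Across the 727 members log2 RPM plus 0.1 of MEL cells and ES-EP had r = 0.624, where the preparations had r = 0.808 within MEL cells and 0.826 within ES-EP. Sites are not independent replicates and share their libraries, so these are descriptions. The ratio of MEL cells to ES-EP had a median of 0.982 (0.188 to 7.54), and 587 members (80.7%) were within 2-fold. More than 5-fold apart were 7 members (0.963%), 6 with MEL above and 1 with ES-EP above, against 7.26% of all 12,927 regions. The rule asks for enrichment in both cell types and so limits how far a member can differ.

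The difference between the cell types was tested with limma (voom) over the preparations, 2 of each cell type, fitted on all 12,927 regions with Benjamini-Hochberg adjustment over all of them. At an adjusted p below 0.05, 12 members (1.65%) were called higher in MEL cells, against 3.33% of all regions, and 3 members (0.413%) higher in ES-EP, against 1.75% of all regions. Regions that passed in 1 cell type only are counted among all. Of the shared distal sites inside genes 4 of 687 were called and of the shared regions within 10 kb of a TSS 19 of 1757. The preparations of the cell types did not overlap at 272 members (37.4%), 148 with MEL above and 124 with ES-EP above, against 46.2% of all regions. Without any 1 of the 4 preparations, limma called 0 members, with 32 to 102 below an unadjusted p of 0.05, and 0 to 36 of all 12,927 regions, with 1538 to 2455 below it. Leaving out a preparation leaves 1 sample in a cell type, which is then assumed to vary like those of the other, so these fits say nothing of the stability of a call. With the preparation letter as a replicate block, which the labels do not show to pair the samples, all 15 calls were lost (limma adjusted p from 0.0559 to 0.181) with log2 differences of 2.06 to 2.89 in size, against 2.06 to 2.88 without the block, while 379 of all regions were called. Scaling by median-ratio size factors in place of total reads raised the median log2 difference of all regions by 0.23 and the calls to 140 members, 100 with MEL above and 40 with ES-EP above. These are 19.3% of the members, against 21.4% of all regions called with the same scaling.

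**Figure D5:**
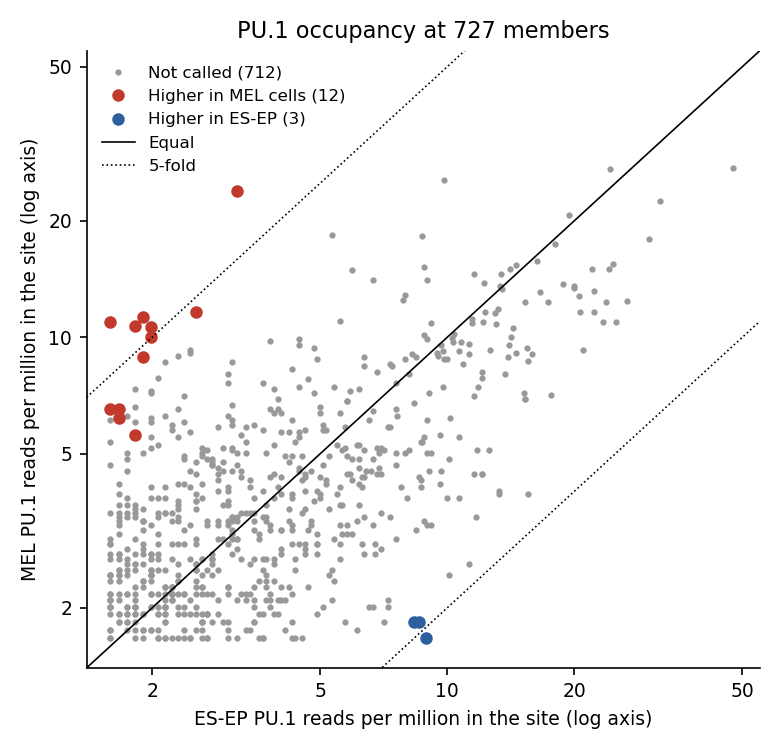
PU.1 RPM in each of the 727 members, MEL cells (vertical) against ES-EP (horizontal), both axes logarithmic, with the line of equality (solid) and 5-fold lines (dotted). Red marks the 12 members called higher in MEL cells and blue the 3 called higher in ES-EP.

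The largest differences among the members were on chromosome 19. The site 22.3 kb upstream of Mlana, a melanocyte antigen gene, at chr19:29750001-29750500, had 146 and 140 MEL reads against 20 and 20 ES-EP reads, with 4 and 2 input reads. Both MEL preparations stood far above both of ES-EP, by 2.88 ± 0.691 in log2 (SE, limma adjusted p = 0.00378). The site upstream of the neighbouring Ranbp6, a nuclear import gene, had 52 and 79 MEL reads against 10 and 10 ES-EP reads (2.70 ± 0.687, limma adjusted p = 0.00711). Both lie in a stretch where the depth-scaled MEL input was 2.80 and 2.53 times that of ES-EP over 1 Mb. With this regional input ratio as an offset in the fit the differences were 1.398 for Mlana (limma adjusted p = 0.283) and 1.37 for Ranbp6 (limma adjusted p = 0.295), and neither passed the threshold.

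Of the other called sites higher in MEL cells, the site 97.6 kb upstream of Agr3 had 35 and 39 MEL reads against 19 and 2 ES-EP reads, and that near Cacng6, a calcium channel subunit gene, 48 and 80 against 16 and 7. The site 10.5 kb from Gm8420, just past the distance limit, had 67 and 68 against 14 and 10. Regional input ratios at these 3 sites were 0.961, 0.985 and 1.29. The site 20.6 kb upstream of Pmaip1, which encodes the death-promoting protein Noxa, had 60 and 60 MEL reads against 14 and 11 ES-EP reads (2.31 ± 0.675, limma adjusted p = 0.0221), with a regional input ratio of 0.967. In each of these the 2 MEL preparations were above both ES-EP preparations in RPM. For all but the site near Pmaip1, which comes from a gene list, this was a condition of naming the site. Of all 12,927 regions 46.2% had preparations that did not overlap in either direction.

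The 3 sites called higher in ES-EP lay far from genes or near genes of other functions. The site 154 kb from 1700047G07Rik had 7 and 13 MEL reads against 57 and 55 ES-EP reads (-2.40 ± 0.688, limma adjusted p = 0.0188), and the depth-scaled MEL input there was 0.570 times that of ES-EP. The site 243 kb from Gm17618 had 4 and 18 reads against 60 and 48, with an input ratio of 0.965. The site 18.2 kb upstream of Trim59 had 9 and 13 against 66 and 39, with an input ratio of 0.850. In all 3 both ES-EP preparations were above both MEL preparations, which was a condition of naming them. Preparations did not overlap in either direction at 46.2% of all 12,927 regions. With the regional input ratio as an offset the call was lost near 1700047G07Rik (-1.59, limma adjusted p = 0.206) and near Trim59 (-1.86, limma adjusted p = 0.104), and it held near Gm17618 (-2.39, limma adjusted p = 0.0322).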

How the data were processed

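PU.1 ChIP-Seq was analysed in 8 ChIP libraries (in each cell type 2 preparations of 2 libraries, as the codes in the labels were read) with 1 MEL and 2 ES-EP input libraries. The authors sequenced them on an Illumina instrument, aligned reads to mm9 with ELAND (version not given in the sources used here) and kept unique alignments with up to 2 mismatches. The deposited files hold the chromosome, start, sequence and strand of each aligned read and no other value, so all counts were made from them here. Starts count from 1 (at least 99.95% of 2000 reads per library matched the mm9 genome). The 5′ ends were shifted by 70 bp (MEL) or 65 bp (ES-EP), and repeats of a position and strand within a library were counted as 1 read, leaving 11,943,680 (MEL) and 12,590,272 (ES-EP) ChIP reads and 4,210,724 and 7,088,441 input reads. GENCODE gave 22,367 protein-coding genes and 51,710 transcripts.

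The floor of 3 reads was set on the depth-scaled input. Preparations (summed libraries) were compared with limma 3.58.1 (voom, two-sided) in R 4.3.3 over all regions, checked on simulated data. The letters A and B were not treated as pairs. A planned exact permutation test of the share of reads in the members is not reported, since the members were chosen on those reads. Intervals are exact binomial and cover counting error only. P-values measure the spread between 2 chromatin preparations of cultured cells. The members, gene lists and words were chosen with earlier results of these data known. Sites named are the 10 strongest by highest bin, up to 5 called members in each direction with the largest difference, up to 4 sites per gene list, the 5 largest groups and sites at the thresholds. To be named among those 5, a called member had to show its direction in all 4 pairs of preparations. The sites of Klf6 and Tbl1xr1, the fourth site of Mzt1 and the farther sites of Runx1 were added after their values were seen. Sites near 2 of the listed genes are counted but not reported here by name.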

Additional observations from a re-analysis of the deposited data

Results flagged for a closer look

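At 48 sites named by rule and for the share of reads in the members, the 4 libraries of each cell type were searched for 1 that stands apart from the rest by Dixon's criterion at 95%. Of 98 such groups 3 were picked out, and 2 of the 3 libraries are of preparation A and 1 is of preparation B. For 4 independent values chance alone picks out about 1 in 20. Libraries of the same preparation are not independent, so that rate need not hold here. At the site near Myb the MEL library A2 stood at 4.85 RPM, and the other MEL libraries between 3.20 and 3.21. At the Jak2 site 14.99 kb upstream the MEL library B1 stood at 4.80 RPM and the others between 6.95 and 7.38. At the site near Cdk6 the ES-EP library A1 stood at 33.6 RPM and the others between 13.1 and 14.7.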

How the results depend on the processing

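The number of sites, 727, was 872 at 3 times and 508 at 6 times the input, 1038 with 15 reads, 816 with all reads, 667 without a shift, 707 with bins moved by 250 bp and 603 with genes of every biotype. It was 409 with 30 reads and 306 beyond 50 kb from a TSS, 261 to 522 without 1 preparation, and, in alternatives chosen after seeing the data, 438 with the floor of 3 on input reads before scaling and 416 with thresholds met in each of the 4 preparations. Calls among the members, 12 with MEL above and 3 with ES-EP above, were 7 and 2 with a trend on log2 reads, 100 and 40 with median-ratio size factors, 7 and 0 with at least 60 reads (7 of 561 tested called, 74 below an unadjusted p of 0.05), 14 and 4 with all reads, 12 and 6 with libraries as samples, 7 and 1 with a regional input offset, and 0 for both without any 1 preparation, where 1 sample is left in a cell type and assumed to vary like the others. Of all 12,927 regions, 656 as reported, these fits called 732 (trend), 2765 (median-ratio), 694 (all reads), 503 (libraries as samples), 353 (regional offset) and 0 to 36 (without 1 preparation), and 200 of the 6892 regions with at least 60 reads. With the replicate block by preparation letter limma called 0 and 0, with 41 below an unadjusted p of 0.05, and 379 of all regions. Between the cell types the deviations of the A preparations had r = 0.0775 over all regions and 0.00749 over members. With 2 preparations per cell type this cannot show whether preparations of the same letter were handled together. None of the 15 called sites changed sign in these fits. At all 15 the preparations of the cell types did not overlap. Leaving out 1 preparation or adding the block therefore could not change the sign. With the regional input offset 6 of the 15 stayed below a limma adjusted p of 0.05 and 9 did not, so the 8 members called there include others. The share with AGAGGAAG, 42.5%, was 38.5% within 50 bp, 45.0% within 250 bp and 56.5% for GAGGAAG. The share with a neighbour, 13.1%, was 8.67% at 20 kb and 19.5% at 100 kb. The share chosen on 1 preparation and met in the other was 49.7% from A to B and 73.3% from B to A. MEL minus ES-EP in the percent of reads in members was -0.0350, and -0.162 to 0.0919 without 1 preparation. The causes of these changes were not tested beyond the fewer reads or samples that a setting leaves. With total-read scaling and 2 preparations per cell type, the smallest called difference was 2.06 in log2. The members held a median of 42 reads per cell type, and the part of read number in this was not tested.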
